A study of Rattus norvegicus with 26 samples.

Results

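TCDD and PCB126 were compared in cultured rat hepatocytes at 10 and 100 pM. The arrays were chosen by their labelled chemical and dose, which gave 6 of the 26 arrays of the study, 3 of TCDD and 3 of PCB126. TCDD was present at 10 pM (log10 M of -11) on 1 array of pool 2 and at 100 pM (log10 M of -10) on 1 array of each pool. PCB126 was present at the same doses and in the same pools, so the 6 arrays form 3 pairs matched by dose and pool: 10 pM in pool 2, 100 pM in pool 1 and 100 pM in pool 2. The vehicle, 0.5% DMSO, had 1 array of each pool. All cultures held primary hepatocytes of female Sprague Dawley animals and were exposed for 48 hours; the age of the animals is not given in the sources used here. A pool mixed the cells of 3 rats, so each pool is 1 biological unit, and p-values here measure the spread between arrays, which may in part be technical.

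TCDD, a chlorinated dibenzo-p-dioxin, and PCB126, a coplanar chlorinated biphenyl, are both ligands of the aryl hydrocarbon receptor (AhR). The ligand-bound receptor leaves its chaperone complex in the cytosol, pairs with ARNT in the nucleus and binds xenobiotic response elements near target genes, of which the cytochrome P450 genes Cyp1a1, Cyp1a2 and Cyp1b1 and the detoxifying enzymes Nqo1 and Aldh3a1 are classical members. Cultured hepatocytes also gain actin stress fibres and lose liver-specific expression with time, so contractile genes are a known feature of such cultures. The question of the comparison is which genes separate the chemicals at these doses. TCDD and PCB126 are the only pair of chemicals in the study.

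Values are the authors' log2 expression values, so a difference of 1 is a 2-fold difference in signal. A probe set was called when its Benjamini-Hochberg adjusted p over all 5197 probe sets kept by a filter on low values was below 0.05, in a limma model that takes its spread from all 26 arrays. Among the arrays, the TCDD 10 pM array of pool 2 had the largest difference between the 3′ and 5′ control probe sets of its pool, a measure of RNA integrity, at 2.19 log2 for actin against 1.24 to 1.68 on the other 14 arrays. For GAPDH it had 1.24 against 0.42 to 0.73. The TCDD 100 pM array of pool 1 had the smallest spread of values, an SD of 2.24 log2 against 2.35 to 2.45 on the other 10 arrays of pool 1, and the lowest median correlation with them, 0.945. Both are among the 3 TCDD arrays compared. Outside the 6 arrays, the PCB126 1 pM array of pool 2 had a Cyp1a1 value of 10.80, against 3.21 at 1 pM in pool 1; it enters the estimates of the spread and of the pool effect, and the dose curves of pool 2.

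TCDD differed from PCB126 at 10 and 100 pM in 69 of 5197 probe sets, of which 24 were higher and 45 were lower with TCDD. The calls are 1.33% of the probe sets tested, 0.462% higher and 0.866% lower. With each array centred on its median the split was 18 higher and 68 lower. The 69 probe sets belong to 53 genes, and 31 genes were called by their brightest probe set, 12 higher and 19 lower with TCDD. The genes that rose most with TCDD relative to PCB126 encode enzymes of xenobiotic and steroid metabolism (Cyp1b1, Aldh3a1, Nqo1, Cyp2a2), the antioxidant enzyme Sod2 and the lipoprotein components Apob and Pon1. Those that fell most were, in this order, Acta1, a muscle actin, the secreted protease inhibitor A2m, Tagln, which binds actin, the matrix metalloproteinase Mmp14, the secreted ribonuclease Rnase4 and Myl9, a myosin light chain. All 69 probe sets had the same sign in all 3 matched pairs, as did 47% of all probe sets tested. In 18 of the 31 genes the TCDD and PCB126 arrays did not overlap, against 5.83% of all 3034 genes. Fewer cells of a type and less RNA per cell cannot be told apart in these cultures.

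The number of calls rested on single arrays. Without the TCDD 10 pM array of pool 2 it was 2, and without the TCDD 100 pM array of pool 1 it was 17. Without either of the PCB126 pool 2 arrays (10 or 100 pM) it was 2, without the PCB126 100 pM array of pool 1 it was 5, and without the TCDD 100 pM array of pool 2 it was 705. Leaving out both TCDD arrays described above left 1 TCDD array, at 100 pM in pool 2. It was then set against the PCB126 100 pM arrays of both pools, with the pool in the model. Without the pool as a block the number of calls was 6, and a fit of the 6 arrays alone also gave 6. Leaving out either 10 pM array removed that dose from the comparison, so both of these fits compare the chemicals at 100 pM alone. A dose with 1 array adds nothing to the estimate of the spread. In 16 of the 24 higher and 30 of the 45 lower probe sets (66.7% each) the 10 pM pair gave the largest of the 3 differences, against 29.8% of all probe sets, and the RNA integrity measure of the TCDD array moved with that pair; its part in the calls was not tested. No called gene named here changed sign when any of these arrays was left out. Apob was the only one of them called in all 6 such fits.

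**Figure D1:**
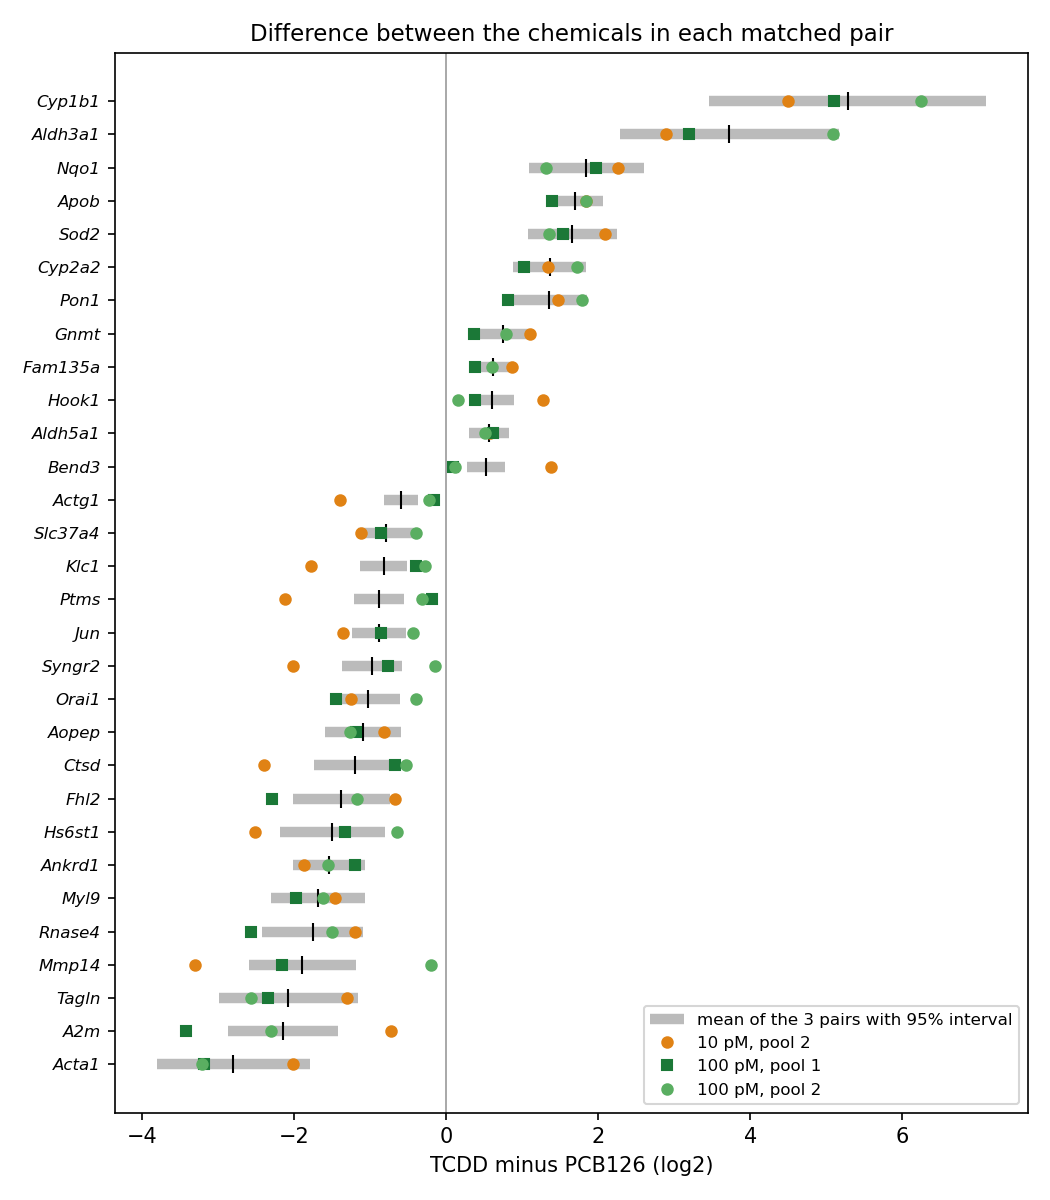
Differences between TCDD and PCB126 (log2, horizontal axis) in each of the 3 matched pairs (points) for 30 called genes, with the mean of the pairs (tick) and its 95% interval (grey bar). All 3 points lie on the same side of 0 for every gene. For Apob, Nqo1 and Myl9 the pairs lie near each other, whereas Ptms, Klc1, Actg1, Syngr2 and Bend3 have the 10 pM pair far from the 100 pM pairs.

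Of the AhR battery, a list of 11 classical target genes, 7 were measured and 3 rose with TCDD relative to PCB126, against 12 of all 3034 genes: Cyp1b1, Aldh3a1 and Nqo1. The median difference of the 7 was 1.84 log2, against 0.02 over all genes. At 10 pM alone, with 1 array of each chemical, the median was 2.86. At 100 pM alone it was 1.64, and 0 of the 7 were called there.

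Cyp1b1, a P450 that oxidises polycyclic hydrocarbons and steroids, had the largest difference among the genes called. Its values on the TCDD arrays were 8.27 at 10 pM and 9.37 and 10.07 at 100 pM in pools 1 and 2. On the PCB126 arrays they were 3.78, 4.27 and 3.81, and on the vehicle arrays 4.66 in pool 1 and 3.70 in pool 2. Every TCDD array was thus above every PCB126 array, and the PCB126 arrays were at the level of the vehicle. The means were 9.24 ± 0.91 with TCDD and 3.95 ± 0.28 with PCB126 (SD, n = 3 each), a difference of 5.28 ± 0.85 (SE, adjusted p 0.0125). No fold is given, because the PCB126 and vehicle values lay near the filter threshold of 3.71. Of its 4 probe sets, 3 were called and the fourth had a difference of 2.71 ± 0.87 (adjusted p 0.159). Without 1 of the 6 arrays the difference stayed between 5.01 and 5.68, with adjusted p from 0.0138 to 0.0729. Without the PCB126 1 pM array of pool 2, where Cyp1b1 had 9.14, the adjusted p was 4.64e-07.

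Aldh3a1, an aldehyde dehydrogenase that is nearly silent in untreated rat liver, rose as well. It had 5.33, 5.37 and 8.10 on the TCDD arrays (10 pM, then 100 pM in pools 1 and 2), against 2.44, 2.18 and 3.01 on the PCB126 arrays and 2.30 and 2.45 on the vehicle arrays. No TCDD array overlapped a PCB126 array, but the TCDD arrays themselves spread over more than 2 log2. The difference was 3.73 ± 0.67 (SE, adjusted p 0.0137), with all PCB126 and vehicle values below the filter threshold, so no fold is given. Nqo1, a quinone reductase that answers to both AhR and NRF2, had 10.19, 10.67 and 10.52 with TCDD, 7.94, 8.71 and 9.21 with PCB126 and 7.05 and 7.70 with vehicle. Its difference was 1.84 ± 0.35 (SE, adjusted p 0.0160), 3.59-fold (2.12 to 6.07), and here the PCB126 arrays lay above the vehicle arrays of their pools. The other Nqo1 probe set, with a mean of 2.64 over all arrays, was not called, at 0.47 ± 0.49 (SE, limma adjusted p 0.563). Without 1 of the 6 arrays the adjusted p ran from 0.0240 to 0.102 for Aldh3a1 and from 0.00854 to 0.236 for Nqo1.

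The best known target did not pass the test. Cyp1a1, the P450 used as the standard marker of AhR activation, had 10.77, 12.29 and 12.16 with TCDD, 7.91, 11.15 and 10.84 with PCB126 and 3.45 and 3.28 with vehicle. Both chemicals were far above vehicle, and the PCB126 100 pM arrays were above the TCDD 10 pM array. The difference was 1.77 ± 1.35 (SE, adjusted p 0.437), with a 95% interval of -1.20 to 4.75, which does not show that the chemicals act alike. All 3 pairs were positive, at 2.86, 1.14 and 1.32. Cyp1a2, the liver-specific P450 of the same family, had 9.30, 10.08 and 11.53 with TCDD, 4.14, 9.33 and 8.29 with PCB126 and 3.54 and 3.39 with vehicle. The difference of 3.05 ± 0.87 did not pass (adjusted p 0.108, 95% interval 1.18 to 4.92), and it was largest at 10 pM. Without the PCB126 1 pM array of pool 2 the same difference of Cyp1a2 was called (adjusted p 0.00174), while that of Cyp1a1 was not (adjusted p 0.0671). Ugdh, which makes the sugar donor for glucuronidation, differed by 0.40 ± 0.24 (adjusted p 0.366), and Nfe2l2, which encodes NRF2, by 0.25 ± 0.22 (adjusted p 0.490).

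**Figure D2:**
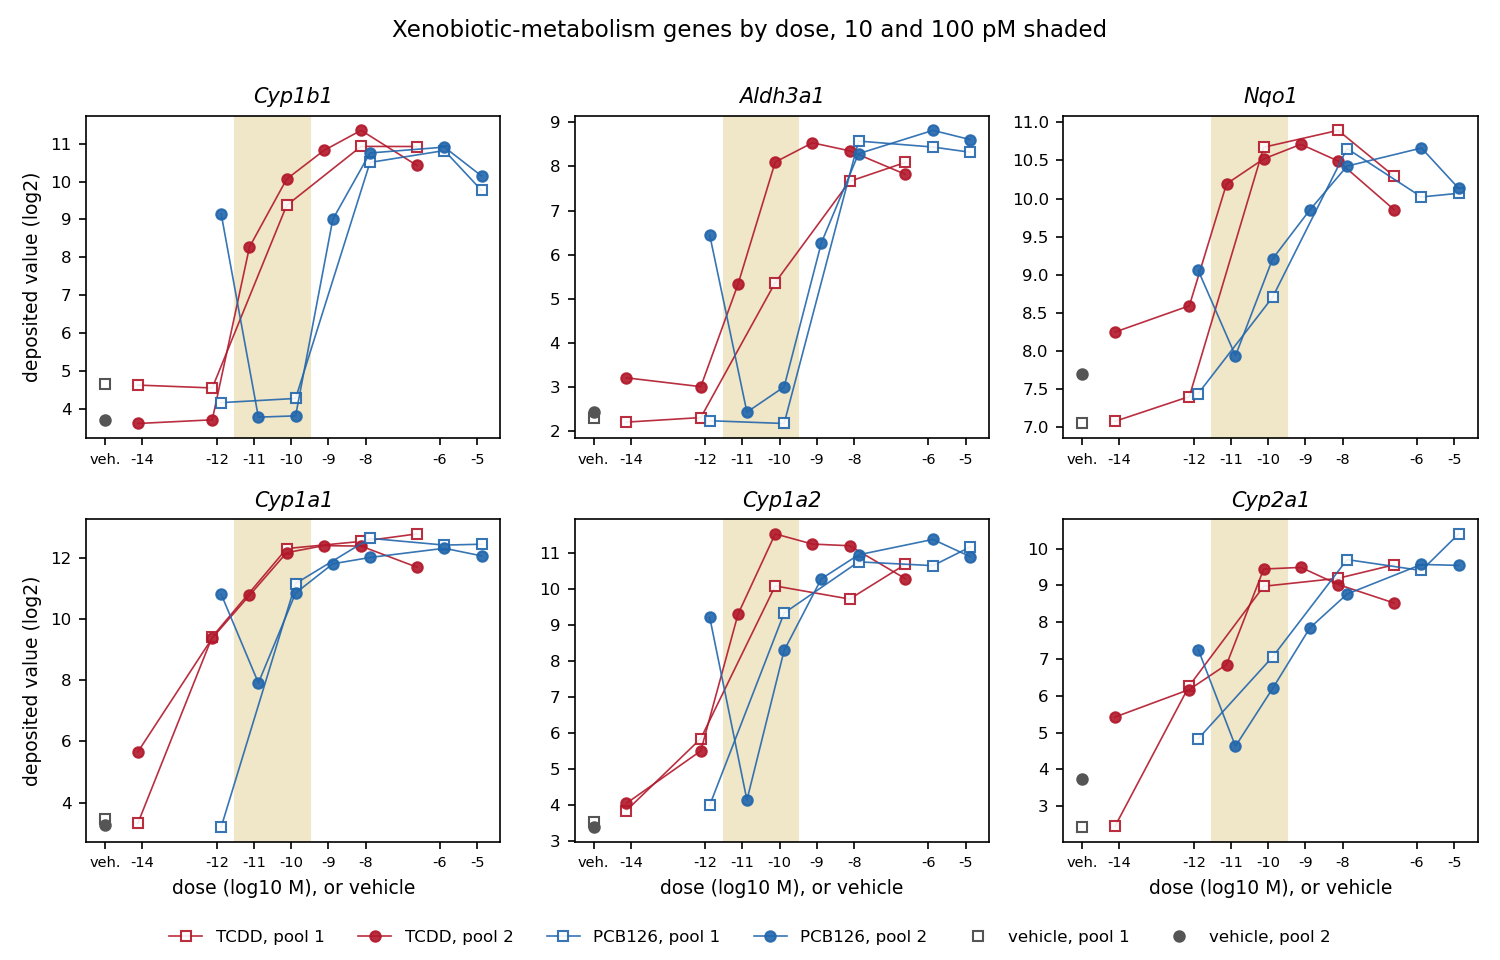
Deposited log2 values (vertical axis) of 6 genes of xenobiotic metabolism by dose (log10 M, horizontal axis, vehicle at the left, the highest TCDD dose at -6.5), with TCDD in red, PCB126 in blue, pool 1 as open squares and pool 2 as filled circles. In the shaded range of 10 and 100 pM the Cyp1b1 values of TCDD are 8.27 to 10.07 and those of PCB126 are 3.78 to 4.27, while for Cyp1a1 PCB126 has reached 10.84 and 11.15 at 100 pM.

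To show what lies upstream of these genes, the 250 bases before the annotated start of Cyp1b1 (chr6:21094315-21094564, plus strand) and of Nqo1 (chr19:52220268-52220517, minus strand) follow, from RefSeq on GRCr8. Capitals mark the core of the xenobiotic response element, GCGTG, on either strand.
Cyp1b1: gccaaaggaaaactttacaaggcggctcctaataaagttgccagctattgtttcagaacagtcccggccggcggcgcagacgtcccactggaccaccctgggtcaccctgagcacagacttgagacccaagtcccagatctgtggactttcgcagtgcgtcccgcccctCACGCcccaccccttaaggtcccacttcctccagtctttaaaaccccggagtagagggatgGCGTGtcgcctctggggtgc
Nqo1: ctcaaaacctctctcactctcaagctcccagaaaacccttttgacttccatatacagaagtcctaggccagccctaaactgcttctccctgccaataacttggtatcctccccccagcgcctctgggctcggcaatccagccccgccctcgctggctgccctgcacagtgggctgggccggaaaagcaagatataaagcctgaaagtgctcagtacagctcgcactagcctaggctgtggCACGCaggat
The promoter table, which runs from 250 bases before the start to 50 after it, held 9 of the 12 genes that rose and 7 of the 12 that fell furthest. The core was present in 6 of those 9 and in 4 of those 7, against 29.7% of all 33469 promoters of 300 bases. A match of 5 letters is a description of the sequence and not a binding site.

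The genes of the receptor itself and of its partners did not pass the test. Of 13 genes listed for the AhR complex and its partners, 6 were measured, 0 were called and the median difference was 0.06. Ahr differed by 0.00 ± 0.21, with a 95% interval of -0.45 to 0.46 (adjusted p 0.996), Arnt by -0.01 ± 0.11 (-0.25 to 0.22, adjusted p 0.942) and the chaperone Hsp90ab1 by 0.00 ± 0.13 (-0.28 to 0.28, adjusted p 0.992).

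Of the constitutive liver P450s, a list of 24, 18 were measured and 1, Cyp2a2, rose with TCDD relative to PCB126; the median was 0.15. Cyp2a2, a steroid hydroxylase of rat liver, had 7.81, 8.99 and 8.96 with TCDD, 6.47, 7.96 and 7.23 with PCB126 and 7.75 and 6.85 with vehicle. The TCDD 10 pM array lay below the PCB126 100 pM array of pool 1, but within each pair TCDD was higher, by 1.37 ± 0.23 on average (SE, adjusted p 0.0125). Cyp2a1, a testosterone hydroxylase, had 6.85, 8.98 and 9.45 with TCDD, 4.63, 7.06 and 6.20 with PCB126 and 2.44 and 3.74 with vehicle. Its difference of 2.46 ± 0.69 did not pass (adjusted p 0.0983). Cyp2c7, a retinoid-metabolising P450, pointed the other way at -1.26 ± 0.38 (adjusted p 0.124). Among 10 measured targets of the drug receptors CAR and PXR, 0 were called; Cyp3a23-3a1, the classical PXR target of the rat, differed by 2.01 ± 0.50 (adjusted p 0.0641) by its brightest probe set, and its other probe set was called at 1.58 ± 0.34 (adjusted p 0.0340).

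Among 30 measured genes for secreted liver proteins and hepatocyte identity, 2 rose and 1 fell with TCDD relative to PCB126, against 12 and 19 of all 3034 genes, and the median was -0.29. Apob encodes the structural protein of very low density lipoprotein. It had 10.58, 11.52 and 11.01 on the TCDD arrays, 8.73, 10.13 and 9.17 on the PCB126 arrays and 10.51 and 9.94 on the vehicle arrays. The TCDD and PCB126 arrays did not overlap, and the vehicle values lay between them in each pool. The means were 11.04 ± 0.47 with TCDD and 9.35 ± 0.71 with PCB126 (SD, n = 3 each), and the difference of 1.69 ± 0.18 (SE, 3.23-fold, 95% interval 2.49 to 4.19) had the smallest adjusted p of the comparison, 0.000531. TCDD differed from vehicle by 0.90 ± 0.20 (adjusted p 0.0324) and PCB126 from the same vehicle arrays by -0.79 ± 0.20, which was not called. Of 5 Apob probe sets, all differed in the same direction and 2 were called; the mean of the 5 differed by 0.75 (adjusted p 0.0792). The call was lost without the pool as a block (adjusted p 0.0902) and in a fit of the 6 arrays alone (adjusted p 0.0961).

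Pon1, the paraoxonase carried on high density lipoprotein, had 10.11, 10.21 and 10.63 with TCDD, 8.65, 9.39 and 8.84 with PCB126 and 8.61 and 8.88 with vehicle. The groups did not overlap, and the difference was 1.36 ± 0.23 (SE, adjusted p 0.0125). The other 2 Pon1 probe sets were not called, at 0.82 ± 0.27 (adjusted p 0.152) and 0.67 ± 0.29 (adjusted p 0.282), and the mean of the 3 differed by 0.95 (adjusted p 0.0792). Rnase4, a secreted ribonuclease, fell: it had 6.71, 5.06 and 6.10 with TCDD, 7.91, 7.63 and 7.60 with PCB126 and 7.73 and 7.85 with vehicle, a difference of -1.76 ± 0.31 (SE, adjusted p 0.0125). Every TCDD array lay below every PCB126 and vehicle array. Albumin differed by -0.28 ± 0.15 (adjusted p 0.347). A2m, an acute-phase protease inhibitor, was the only called gene of 28 measured for the acute phase and complement. It had 7.90, 4.04 and 6.29 with TCDD, 8.62, 7.46 and 8.59 with PCB126 and 7.37 and 9.06 with vehicle, so that the TCDD 10 pM array overlapped the PCB126 arrays. The difference was -2.15 ± 0.34 (SE, adjusted p 0.0116); 1 of its 5 probe sets was called and 4 were negative.

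Sod2, the mitochondrial superoxide dismutase, was the only called gene of 28 measured in the glutathione and NRF2 list, by the brightest probe set of each gene. It had 8.27, 9.14 and 8.42 with TCDD, 6.18, 7.61 and 7.07 with PCB126 and 7.98 and 6.88 with vehicle. The TCDD arrays lay above the PCB126 arrays, with a difference of 1.66 ± 0.27 (SE, adjusted p 0.0125), and the vehicle array of pool 1 lay above all 3 PCB126 arrays. The glutathione S-transferases Gsta3 and Gstt2 each had a called probe set that was not the brightest of its gene. These differed by 0.63 ± 0.10 (SE, limma adjusted p 0.0116) and 0.70 ± 0.13 (SE, limma adjusted p 0.0138). Gnmt, the glycine methyltransferase that disposes of excess methyl groups, rose by 0.75 ± 0.16 (adjusted p 0.0267); its other 2 probe sets were not called. Slc37a4, the glucose-6-phosphate transporter of the endoplasmic reticulum, was the only called gene of 13 for glucose handling, at -0.79 ± 0.17 (adjusted p 0.0348). Aldh5a1, an enzyme of the pathway that breaks down the transmitter GABA, rose by 0.57 ± 0.12 (adjusted p 0.0348). The groups did not overlap for Gnmt and Aldh5a1. Without the PCB126 1 pM array of pool 2, Slc37a4 (adjusted p 0.0505) and Aldh5a1 were no longer called.

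The contractile, cytoskeleton and dedifferentiation list had 27 measured genes, of which 0 rose and 4 fell with TCDD relative to PCB126, against 12 and 19 of all genes: Acta1, Tagln, Myl9 and Actg1. The median of the list was -0.34, and 17 of the 27 were negative in all 3 pairs, against 486 of 3034 genes. Acta1, the actin of skeletal muscle, had 8.75, 6.58 and 6.96 with TCDD, 10.76, 9.77 and 10.16 with PCB126 and 10.16 and 10.87 with vehicle. All 3 TCDD arrays were below all PCB126 and vehicle arrays. The means were 7.43 ± 1.16 with TCDD and 10.23 ± 0.50 with PCB126 (SD, n = 3 each), and the difference was -2.80 ± 0.47 (SE, adjusted p 0.0125), so PCB126 arrays had 6.97 times the signal. The PCB126 values differed from vehicle by -0.35 ± 0.53.

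Tagln (transgelin), an actin-binding protein of smooth muscle, had 9.98, 7.46 and 8.15 with TCDD, 11.28, 9.81 and 10.72 with PCB126 and 10.53 and 11.09 with vehicle. The TCDD 10 pM array was just above the PCB126 100 pM array of pool 1, and within pairs TCDD was lower by 2.07 on average (difference -2.07 ± 0.43, SE, adjusted p 0.0262); both of its probe sets were called. Myl9, the regulatory myosin light chain, had 5.72, 4.38 and 4.86 with TCDD, 7.17, 6.36 and 6.48 with PCB126 and 6.65 and 7.51 with vehicle, without overlap. Its difference was -1.68 ± 0.29 (SE, adjusted p 0.0125). Ankrd1, a stress-responsive muscle ankyrin-repeat protein, is outside the list and fell by 1.54 ± 0.22 on the log2 scale (SE, adjusted p 0.00733). Its TCDD arrays, at 5.87, 5.71 and 5.51, were the tightest of these genes and lay below the PCB126 arrays at 7.74, 6.91 and 7.06 and the vehicle arrays at 7.68 and 7.47. Actg1, a cytoplasmic actin, had a difference of -0.59 ± 0.10 (adjusted p 0.0125), made up of -1.39 at 10 pM and -0.15 and -0.23 at 100 pM, and it was -0.19 without the TCDD 10 pM array. Cytoplasmic actin Actb differed by -0.14.

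Further called genes that fell have various roles. Fhl2, a LIM-domain protein of stress fibres, differed by -1.38 ± 0.30 (adjusted p 0.0333). Mmp14, a membrane-bound matrix metalloproteinase, differed by -1.89 ± 0.33 (adjusted p 0.0125), but by -3.30, -2.16 and -0.20 in the 3 pairs, so the 100 pM pair of pool 2 showed almost none of it, and by -1.18 without either 10 pM array. Hs6st1, a heparan sulfate sulfotransferase, differed by -1.50 ± 0.32 (adjusted p 0.0333), and by -0.99 without either 10 pM array. The calcium channel subunit Orai1 differed by -1.03 ± 0.20 (adjusted p 0.0169). Jun, the AP-1 transcription factor subunit, had -0.88 ± 0.17 (adjusted p 0.0142) and was the only called gene of 14 in the cell cycle list. Ctsd, a lysosomal protease, had -1.20 ± 0.25 (adjusted p 0.0271), made up of -2.40 at 10 pM and -0.67 and -0.53 at 100 pM, and it was -0.60 without either 10 pM array.

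Tagln is also a marker of stellate cells and fibroblasts. Of 12 such markers 8 were measured, and their summed signal (unlogged) was 2491 to 4185 on the TCDD arrays and 4175 to 6430 on the PCB126 arrays. The median log2 difference of the 8 was 0.02. Of them 3 were positive in all 3 pairs and 1, Tagln, was negative in all 3. The other 7 were not called: Acta2 differed by -0.53 ± 0.15 (adjusted p 0.0940) and Col3a1, a fibrillar collagen with values of 4.16 to 4.91 near the filter threshold of 3.71, by 0.26 ± 0.12 (adjusted p 0.296). The part of other cells in the contractile result was not tested. The summed signal of 4 of 12 macrophage markers was 969 to 1569 on the TCDD arrays and 632 to 1304 on the PCB126 arrays, that of 3 of 10 endothelial markers 33.6 to 86.9 and 31.7 to 49.2, that of 4 of 9 cholangiocyte markers 277 to 627 and 399 to 678, and that of 9 of 10 hepatocyte markers 37040 to 43280 and 42190 to 46000. Hepatocyte markers had by far the highest sum on all 6 arrays, with albumin at 13.83 to 14.33 with TCDD and 14.37 to 14.45 with PCB126.

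**Figure D3:**
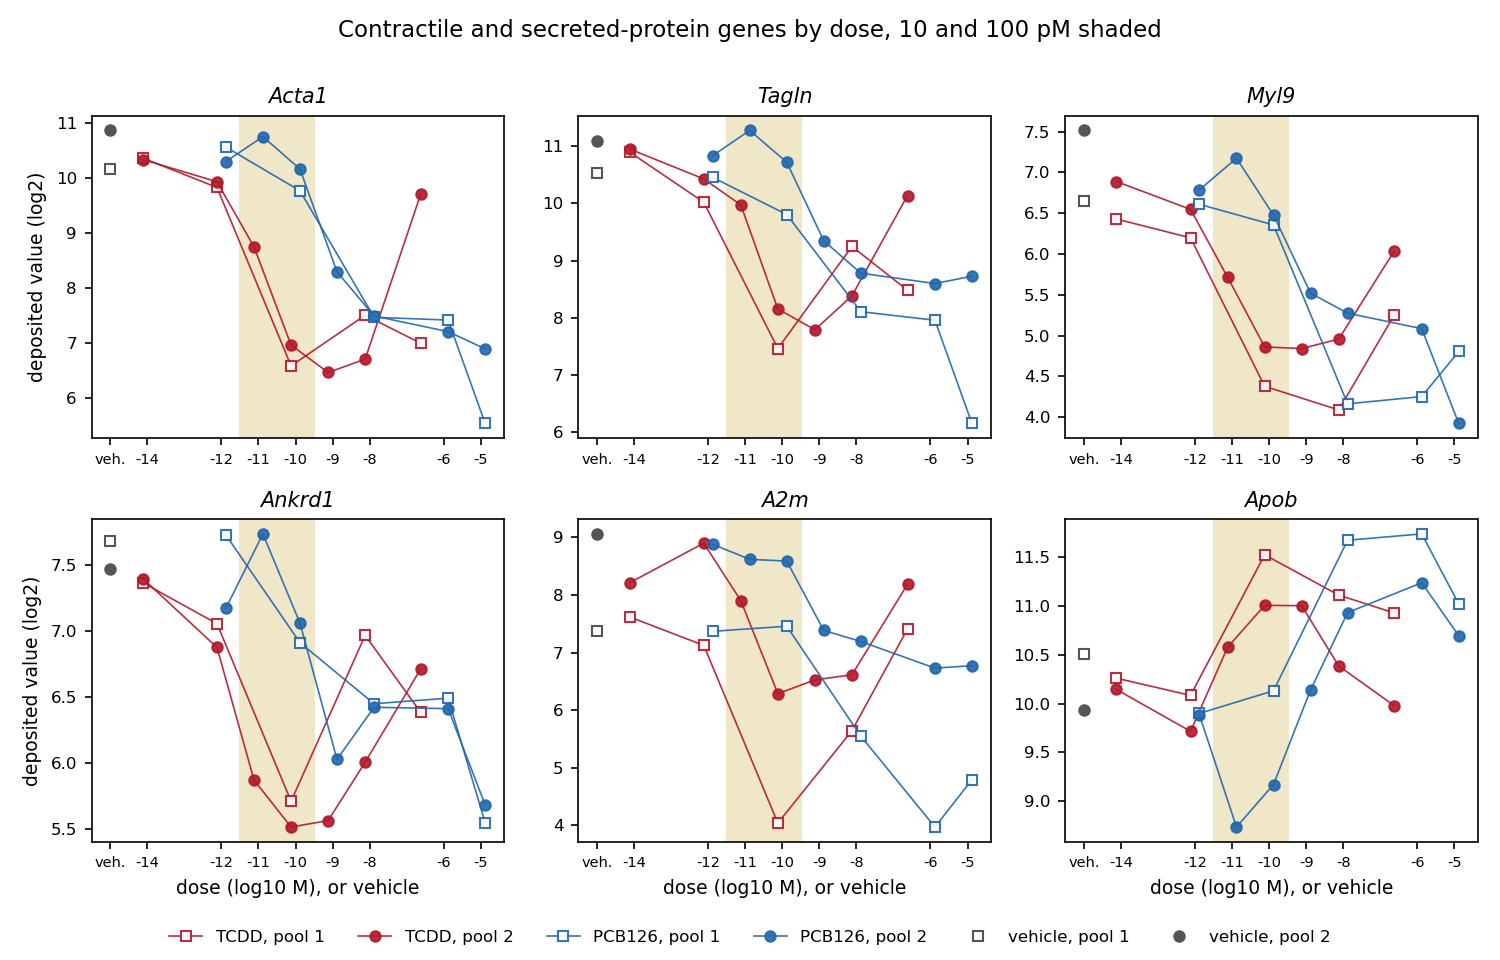
Deposited log2 values (vertical axis) of 5 genes lower with TCDD and of Apob by dose (log10 M, horizontal axis, vehicle at the left), with TCDD in red, PCB126 in blue, pool 1 as open squares and pool 2 as filled circles. In the shaded range Acta1 is at 6.58 to 8.75 with TCDD and at 9.77 to 10.76 with PCB126, whereas Apob is at 10.58 to 11.52 with TCDD and at 8.73 to 10.13 with PCB126.

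The promoters of Acta1 (chr19:68784195-68784444, minus strand) and Fhl2 (chr9:52954541-52954790, minus strand) are shown because they were the only called genes of this group, among those in the promoter table, with a CArG box, the element bound by serum response factor at muscle and cytoskeletal genes. The 250 bases before each start are given from RefSeq on GRCr8, with the CArG box in capitals.
Acta1: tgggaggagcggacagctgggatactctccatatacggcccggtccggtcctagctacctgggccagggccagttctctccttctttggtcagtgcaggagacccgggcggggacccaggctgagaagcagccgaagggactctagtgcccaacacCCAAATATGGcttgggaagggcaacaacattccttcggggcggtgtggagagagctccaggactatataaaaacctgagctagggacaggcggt
Fhl2: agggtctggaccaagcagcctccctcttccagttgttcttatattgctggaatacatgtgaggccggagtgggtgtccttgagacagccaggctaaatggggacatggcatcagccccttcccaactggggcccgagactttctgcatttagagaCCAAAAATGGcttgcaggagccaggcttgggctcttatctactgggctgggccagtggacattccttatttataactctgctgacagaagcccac
The box begins at position -94 in Acta1 and at -95 in Fhl2, counted back from the start. It was present in 2 of the 7 promoters of genes that fell and in 0 of the 9 of genes that rose, against 1.64% of all 33469 promoters; no xenobiotic response element core lay in either window. A match is not evidence of binding.

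By the brightest probe set of each gene, no list of other functions had more than 1 called gene. Of 19 measured chemokine and cytokine genes 0 were called, while 13 were positive in all 3 pairs, as were 873 of all 3034 genes, and the median was 0.19. Ccl2, a monocyte chemoattractant, had 9.42, 10.42 and 9.35 with TCDD, 7.80, 9.81 and 8.72 with PCB126 and 9.27 and 7.55 with vehicle. The groups overlapped, and the difference was 0.95 ± 0.31 (adjusted p 0.148). Of 31 ribosomal protein genes 0 were called, 13 were negative in all 3 pairs, as were 486 of all genes, and the median was -0.22. Genes of the proteasome, heat shock, mitochondrial respiration, cholesterol synthesis and the making and oxidation of fatty acids had 0 calls in each list, with medians between -0.29 and 0.01.

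The doses were also fitted apart. At 10 pM each chemical had 1 array, which the fit assumes to vary like the other groups, so the counts of the doses are not compared. There 136 probe sets (2.62%) were called, 48 higher and 88 lower with TCDD, and 89 of the 136 had the same sign in both 100 pM pairs. Over all probe sets tested, 47% had the same sign in all 3 pairs. At 100 pM, with 2 arrays of each, 2 probe sets (0.0385%) were called, although 756 had p below 0.05 before adjustment. They were those of Apob, at 1.61 ± 0.22 (adjusted p 0.0113), and A2m, at -2.86 ± 0.42 (adjusted p 0.0158). In pool 1 the count at 100 pM was 0 with the TCDD array left out and 1 with the PCB126 array left out. In pool 2 the same steps gave 885 and 0. For 3 genes called at 10 pM the values at the doses stood far apart. Ptms, parathymosin, differed by -2.12 ± 0.26 at 10 pM (adjusted p 0.00281) and by -0.26 ± 0.19 at 100 pM. Klc1, a kinesin light chain, differed by -1.78 ± 0.25 (adjusted p 0.00281) and -0.34 ± 0.18. Acta2 differed by -1.53 ± 0.25 (adjusted p 0.00785) and -0.03 ± 0.18. The lone TCDD array at 10 pM is the one with the largest 3′ to 5′ difference, and whether these genes differ between the chemicals cannot be told apart from a property of that array.

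Against vehicle, TCDD at 10 and 100 pM changed 80 probe sets (1.54%), 34 higher and 46 lower, and for PCB126 at the same doses 0 were called (0%). In a fit of only the arrays compared, with a block, 26 were called for TCDD and 53 for PCB126, 38 higher and 15 lower. For PCB126, the p before adjustment was below 0.05 in 155 probe sets by limma, and no adjusted p was under 0.660. Both comparisons share the 2 vehicle arrays, so their values are set side by side only. Of the 31 genes that separated the chemicals, 21 were also called for TCDD against vehicle and 0 for PCB126. Of all 3034 genes, 17 were called higher and 23 lower for TCDD against vehicle. The same 3 TCDD arrays chose the 31 genes and enter the comparison with vehicle, so the overlap is in part built in. Cyp1b1 differed from vehicle by 5.01 ± 0.95 with TCDD (adjusted p 0.0177) and by -0.27 ± 0.95 with PCB126. Nqo1 differed by 3.02 ± 0.40 (adjusted p 0.00532) and 1.17 ± 0.40. Cyp1a1 differed by 8.27 ± 1.52 (adjusted p 0.0219) and 6.498 ± 1.52, the second not called. Myl9 differed by -2.18 ± 0.32 with TCDD (adjusted p 0.00651) and by -0.49 ± 0.32 with PCB126. Without the vehicle array of either pool the TCDD count was 16, and without the TCDD 100 pM array it was 43 for pool 1 and 361 for pool 2. The PCB126 count was 12 without the vehicle array of pool 2 and 6 without the PCB126 1 pM array of pool 2.

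The difference between the chemicals was set against that at 1 and 10 nM, higher up the dose range, with the same pools and weights. There TCDD and PCB126 differed in 0 of 5197 probe sets (0%), while by limma 80 had p below 0.05 before adjustment and every adjusted p was 1.00. The 95% interval lay within 1 log2 on either side of 0 for 92.8% of the probe sets. All 69 probe sets called at 10 and 100 pM had a smaller absolute difference at 1 and 10 nM, where their median was 0.17 log2 against 1.09 at 10 and 100 pM, and 32 had the opposite sign. They were chosen by the difference at 10 and 100 pM, so this decline is a description. For 24 of the 31 genes the interval at 1 and 10 nM lay within 1 log2. Cyp1b1 differed there by 0.95 ± 0.85 (-0.88 to 2.77), Aldh3a1 by 0.47 ± 0.67, Acta1 by -0.86 ± 0.47 and Ankrd1 by -0.12 ± 0.22. The test of the change between the dose ranges called 1 probe set (0.0192%), that of Apob, and gave 410 an unadjusted p below 0.05; the call was lost without either TCDD array that stood apart.

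**Figure D4:**
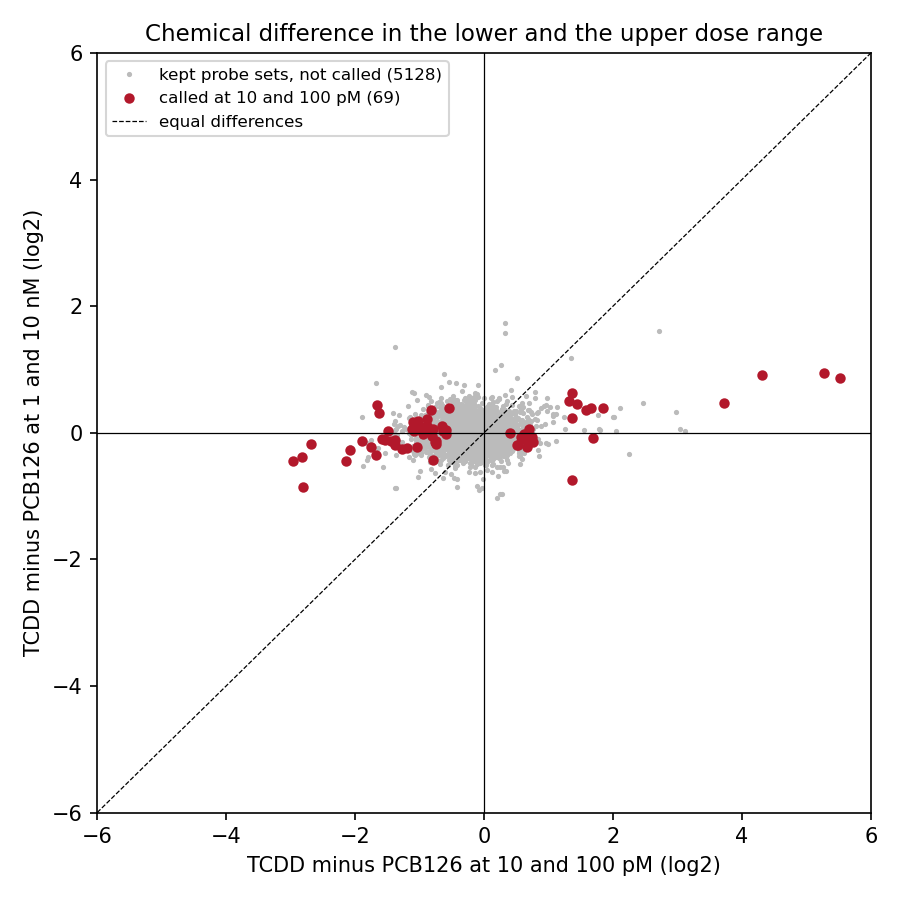
Difference between TCDD and PCB126 (log2) at 10 and 100 pM (horizontal axis) and at 1 and 10 nM (vertical axis) for the 5197 probe sets, with the 69 called at 10 and 100 pM in red. The called probe sets reach 5.52 on the horizontal axis and stay within 0.95 of 0 on the vertical axis.

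How far each chemical had gone at 10 and 100 pM was described for the 15 called genes that changed by more than 1 log2 from vehicle at 1 and 10 nM, as the share of that change already present. For TCDD the median share was 100.5%, with a range of 69.7 to 141.6%. For PCB126 the median was 13%, with a range of -21.7 to 38.3%. The genes were called for their difference, so no test is attached. Aldh3a1 had 69.7% with TCDD and 2.6% with PCB126, Acta1 96.7% and 12.1%, and Nqo1 98.6% and 37.6%. Of genes that were not called, Cyp1a1 had 93.9% with TCDD and 74.1% with PCB126 and Cyp1a2 had 94.6% and 52.6%, but Cyp3a23-3a1 had 79.9% and 17.2% and Cyp2c7 had 76.9% and 20.7%. TCDD was not ahead in every such gene: Ahr had 43.6% and 43.4%, and Dnajb1 had 70.7% with TCDD and 94.3% with PCB126.

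Pool 2 had every dose from 1 pM to 10 nM, and the dose at which each gene was midway between vehicle and the mean of the 10 nM arrays of both chemicals was read from it by interpolation, at the last crossing where there were several. In the 15 genes the midpoint lay at a median log10 M of -11.54 for TCDD (-11.97 to -10.92) and -9.45 for PCB126 (-10.1 to -8.77). The distance between the chemicals had a median of 1.84 log10 units and ran from 1.5 in the closest gene to 2.67 in the farthest. The 15 genes were called for a difference between the chemicals, partly on the same pool 2 arrays. A wide distance was thus in part built in, and its size is a description. Genes that were not called varied more. Tat had its midpoints at -11.74 with TCDD and -9.02 with PCB126, Cyp1a2 at -11.54 and -10.26, and Aldh1a1 at -10.04 and -9.16. For Ahr the order was reversed, at -10.79 with TCDD and -11.97 with PCB126. Acta1 had its midpoint at -11.2 with TCDD and -9.37 with PCB126, and Cyp1b1 at -11.2 and -9.31, so a gene that fell and a gene that rose shared nearly the same positions. These positions rest on 1 array per dose and were computed after the values had been seen. Among those arrays are the TCDD 10 pM array with the largest 3′ to 5′ difference and the PCB126 1 pM array that stood apart.

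**Figure D5:**
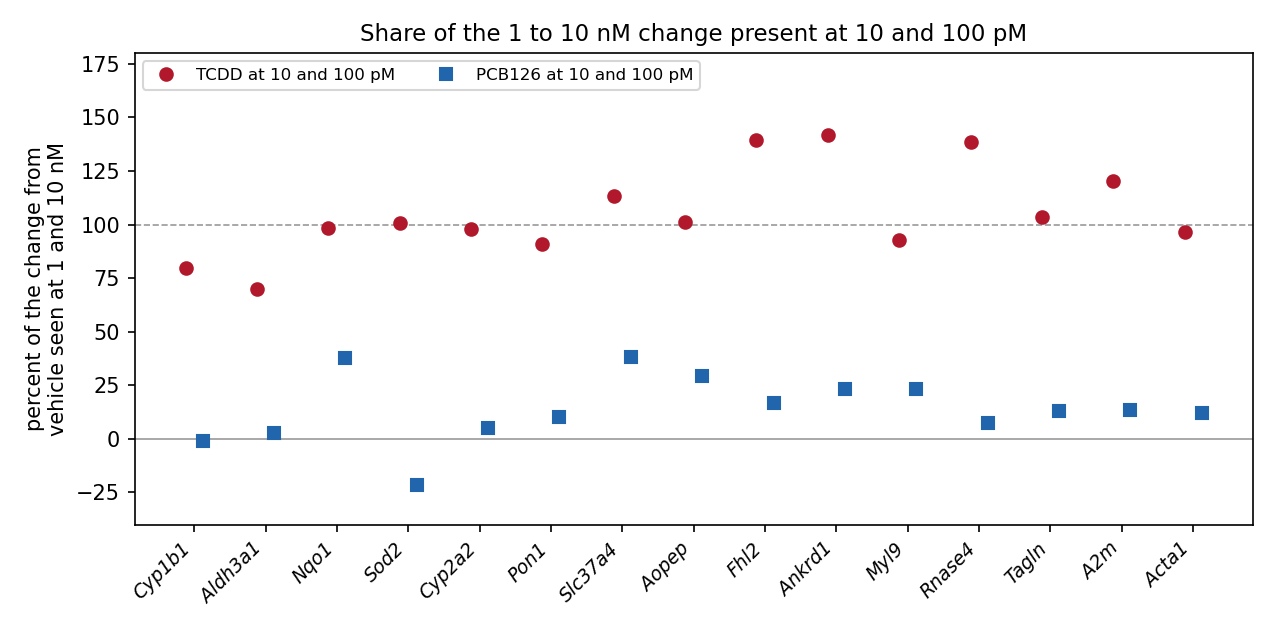
Share of the change from vehicle at 1 and 10 nM (percent, vertical axis) that was present at 10 and 100 pM with TCDD (red circles) and with PCB126 (blue squares) for the 15 called genes with a change above 1 log2. TCDD points run from 69.7 to 141.6% and PCB126 points from -21.7 to 38.3%, and no gene has its points in the other range.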

How the data were processed

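The values are the authors' deposited log2 expression values of a short-oligonucleotide rat array, 8799 probe sets on 26 arrays, for which GCRMA 2.8.0 and RMA are named, per the submitters' processing notes; the role of each is not given in the sources used here. Differences near the lowest signals depend on the background correction. The arrays' number limits the precision.

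The 59 control probe sets were left out, and 5197 were kept whose second-highest value exceeded the median of all values, 3.71. Of these 4195 name 1 gene (3034 genes, each represented by its brightest probe set). A linear model with terms for pool and for each of 15 groups was fitted with limma 3.58.1 (R 4.3.3; moderated with a trend and robustly) and left 10 residual degrees of freedom. The 10 and 100 pM doses had weights of 0.333 and 0.667, which gives the mean of the 3 pairs. Pool was a block because the labels place its arrays in the same animals' cells. Adjusted p-values are Benjamini-Hochberg over the 5197.

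Named genes are the 12 called genes of each direction with the largest differences, all measured AhR battery and complex genes, up to 3 members of each of the 31 gene lists by p, and up to 8 per direction of the other comparisons. The genes, lists and tests were chosen with earlier results of these data known. Alternatives covered the block, filter, centring, weights, eBayes options and each array. The code was tested on simulated data. Promoter sequences are RefSeq's (GRCr8), matched by symbol.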

Additional observations from a re-analysis of the deposited data

Results flagged for a closer look

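Apob stood out because the difference between the chemicals itself changed between the dose ranges. TCDD minus PCB126 was 1.69 ± 0.18 at 10 and 100 pM and -0.08 ± 0.18 at 1 and 10 nM, and the test of the change gave 1.77 ± 0.25 (SE, limma adjusted p 0.0205), the only one called of 5197. The matched pairs differed by 1.84, 1.39 and 1.84 at 10 and 100 pM, and by 0.86 at 1 nM in pool 2 and -0.56 and -0.55 at 10 nM in pools 1 and 2. By its brightest probe set, Apob was thus positive in all 3 pairs of the lower range and in 1 of 3 of the upper. Its other called probe set differed by 1.44 at 10 and 100 pM and kept the positive sign at 1 and 10 nM, at 0.45. The call of the change was lost without either TCDD array that stood apart, without either PCB126 array of pool 2 at 10 or 100 pM, and without the 10 nM array of either chemical in pool 2.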

How the results depend on the processing

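The count of 69 moved to 6 without the replicate block (the pool as a pair) and to 6 with only the 6 arrays and a replicate block by matched pair, and to 172 with equal dose weights; 57 to 86 were called under the other filters, scalings and eBayes options. Leaving out 1 array gave 2 to 705, and leaving out both TCDD arrays that stood apart, chosen after the data were seen, gave 0. At 10 pM (136) the count was 2 without the block and 73 with a stricter filter; fits on its arrays alone or without 1 of them could not be made. At 100 pM (2) it was 0 without the block, 12 with the stricter filter, 99 with only its arrays and a block, 0 to 885 without 1 array. At 1 and 10 nM it was 0 to 1 without 1 array. The change between the dose ranges (1) had 0 without the block, 6 with centring, 3 without trend and robust, 10 with equal weights, 0 with only the arrays compared, 0 to 116 without 1 array, and 4 without the PCB126 1 pM array of pool 2. TCDD against vehicle (80) had 22 without the block, 53 without a filter, 26 with only its arrays and 16 to 361 without 1 array. PCB126 against vehicle (0) had 53 with only its arrays, 6 without its 1 pM array of pool 2 and 0 to 12 without 1 array; the 100 pM contrast had 7 without that 1 pM array. The causes were not tested. For the 30 called genes named, 505 alternative values kept their sign, 254 of them past the threshold and 251 not; of 1498 for the 90 genes not called, 53 passed.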

Other observations

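Some called probe sets fell outside the naming rule and were chosen here after their values were seen. Lox, the enzyme that cross-links collagen and elastin, had 4.44, 3.11 and 4.19 on the TCDD arrays (10 pM, then 100 pM in pools 1 and 2), 7.75, 5.98 and 6.49 on the PCB126 arrays and 6.0 and 7.80 on the vehicle arrays, a difference of -2.83 ± 0.54 (SE, limma adjusted p 0.0169); its other 2 probe sets were not called. Dusp1, a phosphatase that inactivates MAP kinases, was lower with TCDD by both of its called probe sets, the third not being called, with differences of -1.44 ± 0.18 (adjusted p 0.00284) and -1.03 ± 0.15 (adjusted p 0.00733), and neither overlapped between the chemicals. Rsad2, an interferon-induced antiviral protein, had 5.59, 4.74 and 5.45 with TCDD, 3.84, 4.08 and 3.93 with PCB126 and 4.15 and 3.91 with vehicle, a difference of 1.31 ± 0.27 (adjusted p 0.0251), while its second probe set was not called.

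Gadd45a, a growth-arrest gene induced by stress, has probe sets that disagree: 2 of 4 were negative and 1 was called. The called one had a difference of 1.36 ± 0.28 (adjusted p 0.0253) at 10 and 100 pM and one of -0.74 at 1 and 10 nM. Its TCDD values were 7.01, 6.92 and 5.90 at 10 and 100 pM and 5.39, 4.97 and 4.87 at 1 and 10 nM, and its PCB126 values were 4.46, 5.59 and 5.71, then 5.68, 5.77 and 6.01, against 6.18 and 6.48 with vehicle.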
